A study of Mus musculus with 6 samples.

Results

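The genes described here are 10 tubulin genes of the mouse, 4 alpha (Tuba1a, Tuba1b, Tuba1c, Tuba4a) and 6 beta (Tubb2a, Tubb2b, Tubb3, Tubb4a, Tubb5, Tubb6), taken by Ensembl identifier from a table of 16976 genes. All 10 were present in the table and had counts. RNA bound to LARP1 was recovered by immunoprecipitation from mouse DRG, the dorsal root ganglia that house the cell bodies of sensory neurons, and sequenced as nanopore cDNA reads. There were 2 groups, both of wild-type mice: the injured group after sciatic nerve injury and the uninjured group without it, each with 3 libraries. The sources used here do not give the type of injury, the time after it, the strain, the age or how many animals a library holds. No input RNA or control precipitate was analysed here, so a level tells how much of an RNA came down with LARP1, and enrichment over the tissue was not measured. In bulk ganglia, a change in the number of cells of a type and a change in RNA per cell cannot be told apart.

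Alpha- and beta-tubulin form the heterodimer from which microtubules are built, the tracks that support an axon and carry its transport. Each subunit is made from several genes, the isotypes, whose proteins are very similar and differ most at their C-terminal tails. Growing axons use large amounts of tubulin, and cells also adjust tubulin synthesis by degrading tubulin mRNAs when free dimers are abundant. LARP1 is known to bind the cap and the adjoining pyrimidines of mRNAs with a terminal oligopyrimidine (TOP) tract, which begin with a C followed by a run of C and T.

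Because LARP1 is known to read the first bases of an mRNA, the annotated transcript starts of the tubulin genes were examined first. RefSeq windows (build GRCm38.p6) were found by symbol for 8 of the 10 genes, all but Tubb2b and Tubb6. The stretches shown are those of the alpha genes with the most counts (Tuba1a, Tuba1b), the beta gene with the most counts (Tubb3), and the beta genes with windows that had the highest and the lowest ratio of injured to uninjured levels (Tubb2a, Tubb4a). Each runs 5′ to 3′ on the strand of the gene, from 10 bases before the annotated start to the first 20 bases from it, and capitals mark every C that is followed by at least 4 pyrimidines, with its run.
Tuba1a: agaagcaacaCCTCCTCCTCgCCTCCgcca
Tuba1b: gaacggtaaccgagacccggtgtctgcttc
Tubb3: gctgccgatCCTCCgcagcctgctgtccgc
Tubb2a: ggagggcgactggtCTTTTgcgCTCCTTag
Tubb4a: gcgcagagacagagctccgcagccatctcg

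These stretches lie at chr15:98953482-98953511 on the minus strand (Tuba1a), chr15:98934371-98934400 on the minus strand (Tuba1b), chr8:123411543-123411572 on the plus strand (Tubb3), chr13:34077989-34078018 on the minus strand (Tubb2a) and chr17:57087581-57087610 on the minus strand (Tubb4a), all in GRCm38.p6. Tuba1a was the only one of the 8 genes whose annotated start itself began with such a run, of 10 pyrimidines. Among all 32851 windows in the table, 2.51% began with one. Tubb3 began with 4 pyrimidines, and its marked run of 5 starts 1 base before the annotated start. A run anywhere in the 30 bases around the start was present in 6 of the 8 genes and in 35.8% of all windows, with Tuba1b and Tubb4a the genes that had none. The run was searched on the strand of the gene only, since it describes the RNA, and a match describes the annotated sequence, not a start or a binding site measured here. In the same annotation Tuba1a and Tuba1b are adjacent, with 0 genes between them, and 4 annotated genes, 0 of them protein-coding, lie between Tuba1a and Tuba1c. Tubb2a and Tubb2b are separated by 1 gene, which is not protein-coding.

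Library totals were 116186 to 116608 counts without injury and 211337 to 211879 counts with injury. Within a group, the spread between libraries barely exceeded counting noise (variance 1.16 times that of counting over 3827 genes without and 1.12 times over 6152 genes with injury). They were therefore summed and counted as 1 sample per group, although they are labelled as replicates; the labels do not say whether they came from separate animals or from 1 pool. Differences between the groups thus have no replicate check, and an effect of injury and one of handling the groups separately cannot be told apart. Levels are in CPM, counts scaled to a library total of 1000000, and the exact 95% intervals cover the error of counting alone: amplified reads without molecular identifiers may repeat 1 molecule. The level of a gene was compared between groups. No transcript lengths were used, so levels of different genes were not ranked as amounts of RNA. Where genes are set side by side, as in shares or the gene with the most counts, the values describe counts only.

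RNA of the 10 tubulin genes made up more of the LARP1 precipitate after injury. The 10 genes together were at 4457, 4168 and 4544 CPM in the uninjured libraries and at 7901, 8087 and 7994 CPM in the injured libraries. All injured libraries were above all uninjured ones. The group levels were 4389 CPM (4172 to 4615) in uninjured and 7994 CPM (7775 to 8217) in injured ganglia, a ratio of 1.82 (1.72 to 1.93). Tubb3 made up 41.2% of the added 3604 CPM, Tuba1b 19.4%, and Tubb2a and Tubb2b 12.6% each. Without Tubb3, the other 9 genes had a ratio of 2.17 (1.99 to 2.37).

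Of the 10 genes, 8 had a ratio of injured to uninjured CPM whose interval lay above 1: Tuba1a, Tuba1b, Tuba4a, Tubb2a, Tubb2b, Tubb3, Tubb5 and Tubb6. The interval held 1 for Tuba1c and Tubb4a, and it lay below 1 for 0 of the 10. Among the 5004 genes whose group levels averaged 30 CPM or more, the interval lay above 1 for 25.8% and below 1 for 20.7%. Ratios past 2-fold, whatever their interval, were seen in 7 of the 10 genes (all but Tubb3, Tubb4a and Tubb5), all of them higher after injury, and in 18.2% of the 5004 genes in the higher and 12.8% in the lower direction. One of the 7, Tuba1c, had an interval that held 1. With TMM scaling, 7 of the 10 intervals lay above 1 and 6 ratios were past 2-fold. Over the 5004 genes these were 1166 and 824, with 1163 intervals below 1 and 736 ratios past 2-fold lower. Every injured library was above every uninjured library for 7 of the 10 genes (all but Tuba1c, Tubb4a and Tubb5), which was so for 27.0% of the 5004. Since the libraries count as 1 sample per group, this separation is no replicate check, and Tubb6, 1 of the 7, was not among the 5004. The median ratio was 2.58 over the 10 genes and 1.04 over the 5004. Tuba1c and Tubb6, with 1 uninjured count each, had a mean under 30 CPM and were not among the 5004. The other 8 genes had at least 30 CPM in each group; their median ratio was 2.27, with 7 of the 8 intervals above 1 and 5 of the 8 ratios past 2-fold. Among genes averaging 100 CPM or more, a larger share than 25.8% had an interval above 1 and a larger share than 20.7% below 1. With any 1 library left out, 6 to 8 of the 10 genes had an interval above 1 and 5 to 7 were past 2-fold higher. Over the genes averaging 30 CPM or more, 1118 to 1247 intervals then lay above 1 and 937 to 975 below. Past 2-fold were 907 to 949 of them higher and 647 to 675 lower.

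**Figure D1:**
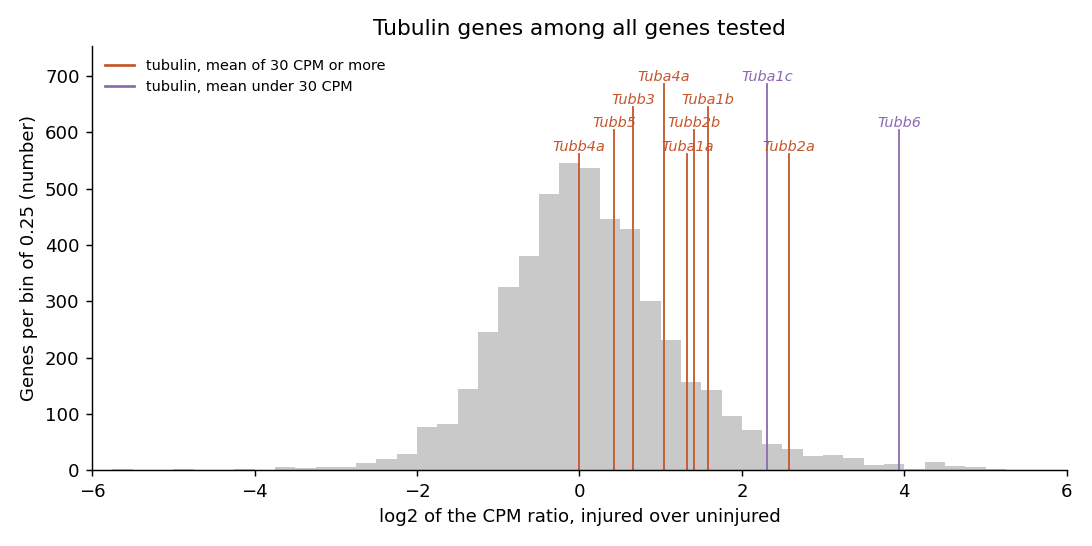
The log2 ratio of injured to uninjured CPM is on the x axis and the number of genes per bin of 0.25 on the y axis, for the 5004 genes averaging 30 CPM or more, with each tubulin gene as a labelled vertical line. A group with 0 counts was set to 3 counts. The lines run from Tubb4a at -0.01, near the middle of the distribution, to Tubb2a at 2.58 and Tubb6 at 3.94; Tuba1c and Tubb6 (purple) had a mean under 30 CPM.

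The alpha genes together had the larger ratio. Their summed level was 680, 600 and 585 CPM in the uninjured and 1779, 1751 and 1589 CPM in the injured libraries, which did not overlap. By group this was 622 CPM (542 to 710) against 1707 CPM (1606 to 1811), a ratio of 2.74 (2.37 to 3.19). The beta genes were at 3777, 3568 and 3959 CPM without and at 6121, 6336 and 6405 CPM with injury, a ratio of 1.67 (1.57 to 1.78). These intervals do not overlap. The alpha genes accordingly gave 14.2% (12.5 to 16) of the 1532 tubulin counts without injury and 21.3% (20.2 to 22.5) of the 5073 with injury, a difference of 7.18 percentage points (5.04 to 9.20). It was 6.51 to 7.92 points with any 1 library left out.

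Tuba1a (ENSMUSG00000072235) encodes the alpha-tubulin most associated with developing and growing neurons. Its level was 163, 240 and 198 CPM in the uninjured libraries and 510, 535 and 468 CPM in the injured ones. The lowest injured library was 1.95 times the highest uninjured one, and the ratio of the groups was 2.51 (1.94 to 3.30). Tuba1b (ENSMUSG00000023004), a broadly expressed alpha-tubulin gene, stood at 422, 317 and 318 CPM without injury. With injury it was at 1086, 1079 and 993 CPM, again with no overlap, and the ratio was 2.99 (2.46 to 3.65). The intervals of Tuba1a and Tuba1b overlap, and Tuba1a's part of the counts of both was 36.3% without and 32.4% with injury, a difference of -3.88 percentage points whose interval (-11.4 to 3.23) holds 0. That difference was -8.41 points without the first and -0.424 points without the second uninjured library. Ratios as high as these were uncommon in the precipitate, since 87.5% of the 5004 genes had a lower ratio than Tuba1a and 90.6% a lower ratio than Tuba1b.

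Tuba4a (ENSMUSG00000026202), whose protein lacks the C-terminal tyrosine that the other main alpha-tubulins are made with, was at 94.6, 34.3 and 68.9 CPM in the uninjured and at 151, 132 and 123 CPM in the injured libraries. The groups did not overlap, but the uninjured level rests on 11, 4 and 8 counts. Its ratio was 2.06 (1.29 to 3.41). Without the second uninjured library it was 1.66 (1.00 to 2.89), which is under 2-fold and no longer clear of 1, and without the first injured library it was 1.94 (1.17 to 3.31). Tuba1c (ENSMUSG00000043091), another alpha-tubulin gene expressed in many tissues, had 7, 1 and 1 counts in the injured libraries against 0, 1 and 0 in the uninjured ones. Most of its injured counts thus came from 1 library, and the ratio of 4.95 has an interval of 0.686 to 217. It was 1.65 without that library, so a difference was not detectable for Tuba1c at this depth.

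**Figure D2:**
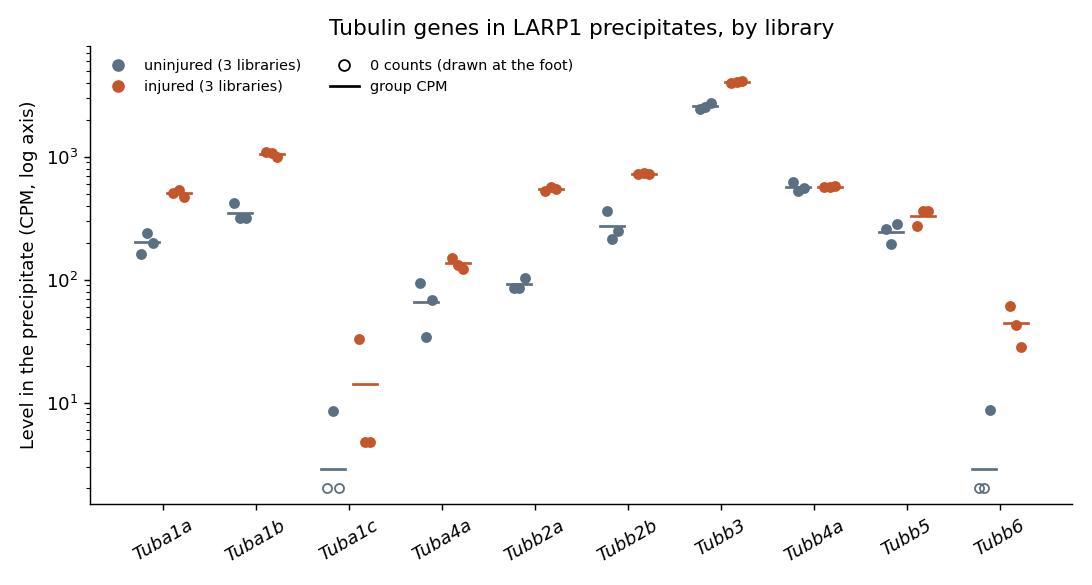
Level of each tubulin gene in CPM on a log axis, with 1 point per library (3 uninjured in grey, 3 injured in orange) and a line at the level of the summed group; open points at the foot are libraries with 0 counts. The injured points lie above all uninjured points for 7 genes and overlap them for Tuba1c, Tubb4a and Tubb5.

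Among the beta genes, Tubb2a showed the largest ratio of those with more than 1 uninjured count. Tubb2a (ENSMUSG00000058672) and its neighbour Tubb2b (ENSMUSG00000045136) encode near-identical beta-tubulins that are prominent in neurons, Tubb2b mainly during development. Tubb2a was at 86.0, 85.8 and 103 CPM in the uninjured libraries and at 529, 568 and 544 CPM in the injured libraries. The lowest injured library was 5.12 times the highest uninjured one, the ratio of the groups was 5.96 (4.15 to 8.86), and 97% of the 5004 genes had a lower one. Tubb2b had 361, 214 and 250 CPM without injury and 722, 738 and 728 CPM with injury. Its groups did not overlap either, and its ratio was 2.65 (2.12 to 3.34), an interval that does not reach that of Tubb2a. Tubb2a gave 25% (17.8 to 33.4) of the counts of this pair without and 42.8% (39.4 to 46.3) with injury, a difference of 17.8 percentage points (9.02 to 25.4). How the estimation divided reads between such similar transcripts was not tested. The sum of the pair, which does not depend on that division, had a ratio of 3.48 (2.89 to 4.23).

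Tubb3 (ENSMUSG00000062380) encodes the beta-tubulin used as a marker of neurons and was the tubulin gene with the most counts, 900 in the uninjured and 2579 in the injured group. Its level was 2443, 2538 and 2754 CPM in the uninjured and 3969, 4060 and 4163 CPM in the injured libraries. The injured libraries were all above the uninjured ones, with the closest 2 separated by a factor of 1.44. The ratio of 1.58 (1.46 to 1.70) was the smallest among the 7 genes whose libraries did not overlap, and 73.0% of the 5004 genes had a lower ratio. The interval of Tubb3 lies below those of Tuba1a, Tuba1b, Tubb2a and Tubb2b.

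Tubb4a (ENSMUSG00000062591), a beta-tubulin gene expressed in the nervous system, oligodendrocytes included, did not share this direction. It was at 628, 532 and 559 CPM in the uninjured and at 566, 568 and 577 CPM in the injured libraries. The injured values fall inside the uninjured range, and the ratio was 0.995 (0.835 to 1.19), so ratios above 1.19 or below 0.835 lie outside the interval. The ratio of Tubb4a was 0.946 (0.794 to 1.13) with TMM and 0.905 (0.759 to 1.08) with upper-quartile scaling, where the interval also held 1. Tubb5 (ENSMUSG00000001525), the beta-tubulin gene expressed in most cell types and in dividing cells, was at 258, 197 and 284 CPM without and at 274, 360 and 364 CPM with injury. Here 1 injured library lay within the uninjured range. Its ratio was 1.35 (1.05 to 1.75), and the interval held 1 with TMM scaling of the libraries (1.28, 0.993 to 1.67), without the second uninjured library (1.23), without the second injured (1.29) and without the third injured library (1.29).

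Tubb6 (ENSMUSG00000001473), a beta-tubulin gene of generally low expression, was nearly absent from the uninjured precipitate, with 0, 0 and 1 counts. In the injured libraries the counts were 13, 9 and 6, or 61.4, 42.6 and 28.4 CPM. Its group level was 2.87 CPM (0.0725 to 16) in uninjured and 44.1 CPM (29.3 to 63.8) in injured ganglia. The ratio of 15.4 rests on 1 uninjured count, and its interval of 2.55 to 630 leaves its size open above a lower end of 2.55. Without the first or the second uninjured library the lower end was 1.70. It was 1.91 without the first injured library and 2.49 without the second. Without the third uninjured library, which held that count, it was 2.61, and without the third injured library 2.93.

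**Figure D3:**
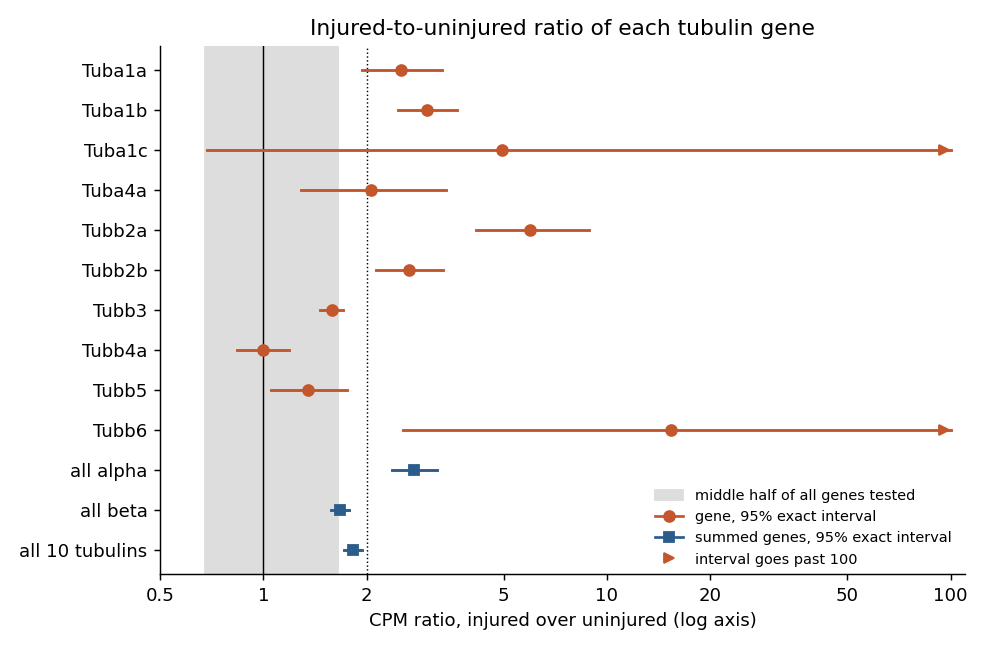
Ratio of injured to uninjured CPM on a log axis for each tubulin gene (orange circles) and for the summed alpha, beta and all 10 genes (blue squares), with exact 95% intervals for counting error; arrows mark intervals that go past 100, the grey band spans the quartiles of the 5004 genes (0.678 to 1.65) and the dotted line is 2-fold. Tubb2a at 5.96 stands above the other genes with narrow intervals, and Tubb4a lies at 0.995.

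The mix of beta isotypes differed between the groups, whereas no share among the alpha isotypes differed beyond counting error. Shares are of the counts of the 6 beta genes or the 4 alpha genes and do not depend on the scaling of libraries. Other tubulin genes were not analysed here. Of the beta counts, Tubb2a went from 2.43% (1.67 to 3.42) without to 8.70% (7.84 to 9.61) with injury, and Tubb2b from 7.30% (5.95 to 8.84) to 11.6% (10.6 to 12.6). Tubb4a went the other way, from 15.2% (13.3 to 17.3) to 9.07% (8.20 to 10), a difference of -6.14 percentage points (-8.35 to -4.07). Its level in CPM was nearly the same in both groups, so its lower share accompanies the higher levels of the other beta genes. Tubb3 was 68.4% (65.9 to 70.9) of the beta counts without and 64.6% (63.1 to 66.1) with injury, a difference of -3.80 points (-6.68 to -0.851). That difference was not clear of 0 without the second uninjured library (-2.55, interval -5.89 to 0.914) or without the third (-3.20, interval -6.59 to 0.326). The share of Tubb6 differed by 0.626 points (0.212 to 0.943), and the difference of Tubb5, -1.25 points (-2.86 to 0.169), held 0, but it was -1.72 points (-3.69 to -0.0546) without the second uninjured library. For Tubb2a, Tubb2b, Tubb4a and Tubb6 the difference stayed clear of 0 with any 1 library left out.

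Among the alpha counts, Tuba1b gave 56.7% (49.8 to 63.4) without and 61.7% (58.7 to 64.6) with injury, and Tuba1a 32.3% (26.1 to 38.9) and 29.5% (26.8 to 32.4). The 3 uninjured libraries spread widely for Tuba1a, at 24.1%, 40.0% and 33.8%, on 19, 28 and 23 counts, while the injured libraries lay at 28.6%, 30.5% and 29.5%. The shares of Tuba4a were 10.6% (6.84 to 15.5) and 7.94% (6.40 to 9.71), a difference of -2.66 points (-7.68 to 1.20). It was -4.98 points (-11.5 to -0.159) without the second uninjured library. With 217 uninjured alpha counts, differences of a few percentage points were not detectable at this depth.

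**Figure D4:**
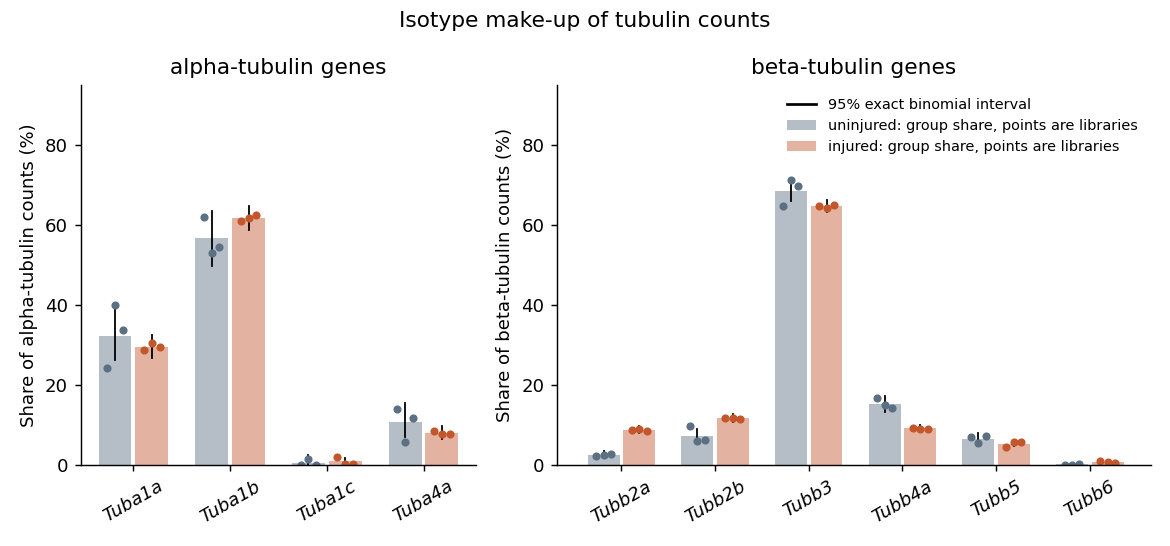
Share of each gene in the counts of the 4 alpha genes (left) and of the 6 beta genes (right), in percent, for the uninjured (grey) and injured (orange) groups. Bars are the summed groups, points the 3 libraries and black lines exact 95% binomial intervals. Tubb2a and Tubb2b hold more and Tubb4a less of the beta counts after injury, and the intervals of each alpha gene overlap between the groups.

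The edgeR quasi-likelihood test over all genes, which here compares the reads of 2 samples and not the conditions, called 6 of the tubulin genes higher (Tuba1a, Tuba1b, Tuba4a, Tubb2a, Tubb2b, Tubb3) and 0 lower, of the 8 that passed its filter on low counts. Tuba4a was not called without the second uninjured library, and Tubb5 was called as well without the first injured library or without TMM factors. Of all genes tested, 792 of 4241 were called higher and 730 lower without that uninjured library. Without that injured library they were 647 and 591 of 2612. Over all 3158 genes in the main test, 24.9% were called higher and 22.1% lower, and without TMM factors 29.4% and 19.3%. The exact test of edgeR was also run on the summed counts of each group. With an assumed coefficient of variation between animals of 0.2 in place of the spread between libraries, Tuba1a, Tuba1b, Tubb2a and Tubb2b were called, beside 9.66% of all genes tested higher and 5.57% lower. With 0.4, 0 of the 8 were called, beside 1.33% and 0.158%. DESeq2 (9.29% of 8618 genes higher, 6.95% lower) and edgeR without a filter (7.16% of 13236 genes higher, 4.40% lower) each called 6 tubulin genes, with Tubb6 in place of Tuba4a.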

How the data were processed

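The authors deposited estimated counts per Ensembl gene, not normalized; the tools, per the submitters' processing notes, were minimap2 and Salmon on GRCm39 (mm39), with versions, annotation release and filters not given in the sources used here. All values were whole. Salmon estimates how reads of similar transcripts are divided: counts of near-identical isotypes, and of the 3 pseudogenes RefSeq names after Tubb2a and Tubb3, are uncertain. Symbols came with the list of members; 0 identifiers matched the RefSeq gene table, so cell type markers, other tubulin genes and tubulin folding or modifying enzymes were not analysed here, and the tissue label was not checked against markers. Members and lists were chosen with earlier results of these data known. All 10 members are named.

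CPM are counts per 1000000 counts of the library total. Counts were summed by group and divided by summed library totals. Ratios have Clopper-Pearson intervals from the injured fraction of each gene's counts, levels exact Poisson intervals, shares exact binomial intervals, and share differences Newcombe intervals (scipy 1.17.1). A group with 0 counts was set to 3 counts, which is 8.60 CPM in the uninjured and 4.73 CPM in the injured group. The test across all genes was the edgeR 4.0.16 quasi-likelihood test (TMM, filterByExpr, Benjamini-Hochberg 0.05), with DESeq2 1.42.0 as an alternative. The assumed coefficients of variation entered edgeR's exact test on the summed counts, with 1 column per group, not the quasi-likelihood test. Scripts were tested on simulated data.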

Additional observations from a re-analysis of the deposited data

How the results depend on the processing

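With the upper-quartile scaling, the ratio was 1.52 for the beta genes and 1.66 for all 10 genes; with totals that leave out the 10 most abundant genes it was 1.56 and 1.71. TMM and upper-quartile scaling shift every log2 ratio by -0.07 and -0.14. Under these 3 scalings 7 genes had an interval above 1 (not Tubb5) and 6 were past 2-fold (not Tuba4a, at 1.95 with TMM); DESeq2 size factors gave 8 and 7. Leaving out 1 library at a time, the ratio of all 10 genes was 1.78 to 1.85. Alternative ratios of single genes reuse the same reads, and the intervals of Tuba1c (0.686 to 217) and Tubb6 (2.55 to 630) leave little outside. Their tally is therefore no measure of how firm the ratios are, and leave-outs without any uninjured count are not in it. Of 123 alternative values, 119 stayed within the counting interval. The other 4 were Tubb3 at 1.43 with upper-quartile scaling, Tubb2a and Tubb2b merged (3.48 for each) and Tubb6 merged with Tubb3 (1.59). Merging Tubb6 with Tubb3 also turned its share difference to -3.18 points, because Tubb3 holds nearly all counts of that sum.

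The background depended on the filter: genes past 2-fold numbered 911 higher and 640 lower, but 2150 and 1457 at a minimum of 10 CPM. They numbered 260 and 173 at 100 CPM, and 1469 and 1205 past 1.5-fold. With every gene that had a count they numbered 2594 and 2879. There, the floor of 3 counts makes genes with 0 uninjured and very few injured counts enter as lower. Higher and lower are therefore not comparable in that setting. Intervals clear of 1 numbered 1290 above and 1035 below, but 2009 and 1450 at 10 CPM, 585 and 506 at 100 CPM, 2235 and 1644 with every gene, and 1166 and 1163 with TMM. From a minimum of 10 to 100 CPM fewer genes were tested. As shares of those, intervals clear of 1 rose in both directions and ratios past 2-fold fell. edgeR called 786 genes higher and 699 lower. With the replicate block it called 750 and 677, and the same 6 tubulin genes. Libraries of the same number had deviations correlated at 0.0389, -0.00625 and -0.0506. Because the spread within a group barely exceeded counting noise, these values cannot show whether libraries of the same number are paired. The exact test of edgeR used coefficients of variation assumed after the data were seen. It called 305 and 176 genes (0.2), and 42 and 5 (0.4), with 0 tubulin genes at 0.4.

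Whether the libraries of a group are separate animals or 1 divided pool is not stated; in the second case edgeR's calls carry no spread between animals. The summed uninjured group of 349027 counts limits the genes with few counts, Tuba1c, Tubb6 and Tuba4a.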
